A study of Mus musculus with 4 samples.

Results

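The genes described here are 10 markers of macrophages and of microglia, the resident macrophages of the retina and brain: C1qa, C1qb, C1qc, Tyrobp, Trem2, Csf1r, Cx3cr1, Aif1, Cd68 and Lyz2. They were chosen by name, as the rows with these symbols, and all 10 were found among the 18702 genes listed. Cx3cr1 and Trem2 were taken as the 2 microglia-leaning members and the other 8 as general macrophage members. RNA from mouse embryonic eye tissue (strain C57BL/6) was sequenced in 4 libraries, 2 labelled as wild type (WT, Anp32b+/+) and 2 labelled as knockout (KO, Anp32b-/-, both alleles of the gene for the acidic nuclear phosphoprotein ANP32B being null). The sources used here do not give the stage, the sex, the number of embryos behind a library or the deleted part of the gene. As no source states that replicate libraries came from different embryos, the p-values reflect the spread between these libraries alone, which may be technical.

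Macrophages enter the embryonic eye early, some from the yolk sac, and spread through the retina, the vessels around the lens and the tissue around the eye. There they clear dying cells and prune vessels. Their survival depends on the receptor CSF1R. Their uptake of debris and synapses uses complement C1q as a tag, and receptors such as TREM2 signal through the adaptor TYROBP. CX3CR1 and TREM2 are typical of microglia but not limited to them, and LYZ2 and CD68 are found in most macrophages.

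The promoters of the members are shown first because the members moved in the same direction. The RefSeq promoter table (GRCm38.p6) held 7 of the 10 genes, namely C1qb, C1qc, Trem2, Cx3cr1, Aif1, Cd68 and Lyz2, and not C1qa, Tyrobp or Csf1r. Each window is the 250 bases before the start the table gives, read 5′ to 3′ on the gene's strand. For C1qc and Aif1 that start lies inside the RefSeq limits of the gene given below, so the bases nearest to it, the Aif1 match among them, lie within the gene. Capitals mark a match to any motif searched on either strand: GAGGAA and GAGGAAGT, sites of the kind bound by PU.1, the ETS factor of myeloid cells; TTGCNNAA, of the C/EBP kind; the composite element of ETS and IRF factors, named here without its letters; and TCANGTGA and CACGTG, E-boxes of the MITF and TFEB kind. A GAGGAAGT match also counts as a GAGGAA match. The windows of the neighbouring genes C1qb and C1qc, of the microglia-leaning Trem2 and of Lyz2, which had one of the largest rises, were these.
C1qb, chr4:136886201-136886450, minus strand: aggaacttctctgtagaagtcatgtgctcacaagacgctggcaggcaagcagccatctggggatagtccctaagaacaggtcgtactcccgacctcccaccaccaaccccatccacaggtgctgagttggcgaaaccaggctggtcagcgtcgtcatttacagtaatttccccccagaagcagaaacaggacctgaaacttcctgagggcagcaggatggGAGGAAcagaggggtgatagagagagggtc
C1qc, chr4:136892915-136893164, minus strand: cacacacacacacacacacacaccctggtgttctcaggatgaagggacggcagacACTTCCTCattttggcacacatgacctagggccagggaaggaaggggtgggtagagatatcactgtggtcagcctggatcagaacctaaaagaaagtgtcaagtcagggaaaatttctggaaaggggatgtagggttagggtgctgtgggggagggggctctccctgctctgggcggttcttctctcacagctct
Trem2, chr17:48346151-48346400, plus strand: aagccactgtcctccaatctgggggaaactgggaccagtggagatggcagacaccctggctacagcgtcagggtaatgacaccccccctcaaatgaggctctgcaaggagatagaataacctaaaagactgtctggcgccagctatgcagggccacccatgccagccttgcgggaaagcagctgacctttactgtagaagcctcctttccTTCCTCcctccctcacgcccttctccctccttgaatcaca
Lyz2, chr10:117282273-117282522, minus strand: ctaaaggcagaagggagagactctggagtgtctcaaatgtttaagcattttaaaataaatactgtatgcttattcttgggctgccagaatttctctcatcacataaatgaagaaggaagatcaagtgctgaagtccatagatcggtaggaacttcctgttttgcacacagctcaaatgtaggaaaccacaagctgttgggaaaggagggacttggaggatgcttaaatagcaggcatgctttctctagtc
GAGGAA was present in 5 of the 7 windows (C1qb, C1qc, Trem2, Aif1 and Cd68), and in 23.3% of all 32851 promoters in the table. The longer GAGGAAGT was present in C1qc only among the 7, and in 2.44% of all promoters. TTGCNNAA was present in Cd68 only, against 9.56% of all promoters. None of the 7 windows held the ETS and IRF composite, TCANGTGA or CACGTG, which 2.30%, 3.45% and 6.02% of all promoters held. Positions were counted from the first base before the start as -1. Matches to GAGGAA or GAGGAAGT lay at -30 to -25 in C1qb, at -195 to -188 in C1qc and at -40 to -35 in Trem2. In Aif1 such a match lay at -7 to -2, and in Cd68 at -225 to -220. The TTGCNNAA match of Cd68 lay at -43 to -36. In the last 100 bases alone, GAGGAA was present in 3 of the 7 windows and in 9.82% of all promoters. A match describes letters and is no evidence of binding.

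The libraries were alike in size. Low FPKM values (fragment number divided by transcript length and by library size) lie on steps worth 1 fragment, and the spacing placed the depth near 17960000 and 17900000 fragments in WT replicates 1 and 2, and near 17880000 and 17780000 in KO replicates 1 and 2. Anp32b, the targeted gene, stood at 163.18 and 179.12 FPKM in the WT libraries and at 94.53 and 92.67 FPKM in the KO libraries, 0.547 times the WT mean. Whether the remaining fragments come from outside the deleted part cannot be read from 1 value per gene.

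All 10 members passed the filter on low values and rose in the knockout, and in each of them both KO libraries lay above both WT libraries. In the same fit (limma on log2(FPKM + 1), Benjamini-Hochberg adjusted p under 0.05, 13887 genes averaging 1 FPKM or more), 33.5% of all genes were called higher and 54.6% were called in either direction. In 45.6% of all genes both KO values lay above both WT values. The summed level of the members was 68.5 and 62.3 FPKM in the WT libraries and 114.2 and 122.3 FPKM in the KO libraries. Their median log2 fold change was 0.56, beside 0.04 over all genes tested, and the ratio of KO to WT means ran from 1.46 for C1qc to 2.55 for Tyrobp. In tissue RNA, more macrophages and more RNA of these genes per macrophage cannot be told apart. Single values in brackets below are log2 fold changes of FPKM + 1, KO minus WT, with the SE of the fit where given. The added 1 makes the change of low genes look smaller than it is.

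Per length, the members stood at 3 levels in the wild type. Lyz2 (mean 12.9 FPKM), C1qb (11.97), C1qc (11.2) and C1qa (10.4) formed the upper level. Their WT values overlapped, except that both Lyz2 values (14.30 and 11.45 FPKM) lay above both C1qc values (11.28 and 11.10 FPKM). Tyrobp (5.93), Csf1r (4.62) and Cd68 (4.14) formed the middle one, and Cx3cr1 (1.63), Aif1 (1.57) and Trem2 (1.08) the lower one, in which Cx3cr1 and Aif1 overlapped. In the knockout the order changed in places. Lyz2 (30.3 FPKM) stood above each of the C1q chains without overlap, Tyrobp (15.1) overlapped with C1qa (15.8), and Cd68 (8.28) lay above Csf1r in both libraries.

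**Figure D1:**
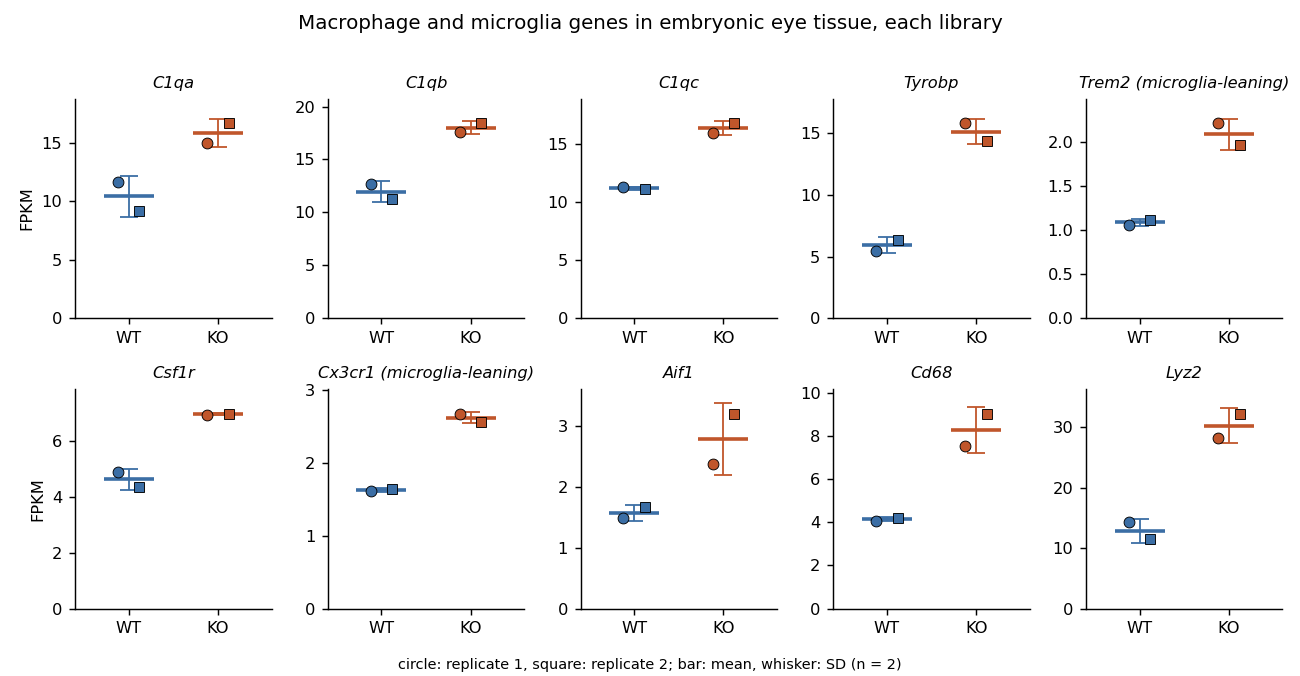
FPKM (vertical axes, each from 0) of the 10 genes in the WT and KO libraries, with circles for replicate 1, squares for replicate 2, a bar for the mean and whiskers for the SD (n = 2). In each panel both KO points lie above both WT points, with the widest KO spread relative to its mean in Aif1 (2.37 and 3.20 FPKM).

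The 3 chains of C1q rose by nearly the same amount. C1qa, C1qb and C1qc encode the A, B and C chains that together form C1q, the recognition molecule of the classical complement pathway, made mostly by macrophages and microglia. C1qa (Entrez 12259, chromosome 4, 136895916 to 136898844) was at 11.66 and 9.13 FPKM in the WT libraries and at 14.96 and 16.66 FPKM in the KO libraries. The WT replicates lay further apart than those of the other chains, and the gene rose by 0.57 on the log2 scale (SE 0.10, limma adjusted p = 0.00331). That call was lost without KO replicate 2 (log2 fold change 0.50, adjusted p = 0.0566).

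C1qb (Entrez 12260, 136880126 to 136886200) was at 12.66 and 11.27 FPKM in the WT libraries and at 17.58 and 18.44 FPKM in the KO libraries (log2 fold change 0.55, SE 0.06, limma adjusted p = 0.000294). C1qc (Entrez 12262, 136889801 to 136892936) was at 11.28 and 11.10 FPKM in the WT libraries and at 15.92 and 16.78 FPKM in the KO libraries (0.51, SE 0.05, adjusted p = 0.000117). The chains also stood at like levels per length. The ratio of C1qa to C1qb was 0.921 and 0.810 in the WT libraries and 0.851 and 0.903 in the KO libraries, so the groups overlapped. The ratio of C1qb to C1qc, 1.12 and 1.01 against 1.10 and 1.10, overlapped as well.

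The C1q genes lie within 18.7 kb, in the order C1qb, C1qc, C1qa, on the chromosome that also carries Anp32b, 90.4 Mb away. The genes on either side moved less. Epha8, an ephrin receptor gene on the C1qa side, was at 37.42 and 36.05 FPKM in the WT libraries and at 39.01 and 37.62 FPKM in the KO libraries (log2 fold change 0.06, adjusted p = 0.211). Ephb2, the ephrin receptor gene on the C1qb side, rose by 0.19 (adjusted p = 0.00353).

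Of the receptors, Csf1r and Cx3cr1 rose by about as much as C1q on the log2(FPKM + 1) scale. Csf1r (Entrez 12978, chromosome 18) encodes the receptor for the growth factors CSF1 and IL-34, on which macrophages and microglia depend. It was at 4.89 and 4.35 FPKM in the WT libraries and at 6.93 and 6.98 FPKM in the KO libraries (log2 fold change 0.50, SE 0.07, limma adjusted p = 0.000783). The ratio of KO to WT means was 1.505, as it was for C1qb. Of its neighbours, Hmgxb3 at 138 bp did not pass the threshold (0.01), and Pdgfrb at 20505 bp, a growth factor receptor of pericytes and mesenchyme, rose by 0.70.

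Cx3cr1 (Entrez 13051, chromosome 9, 120048683 to 120068296), the receptor for the neuronal chemokine fractalkine, was at 1.61 and 1.65 FPKM in the WT libraries and at 2.68 and 2.57 FPKM in the KO libraries (0.46, SE 0.08, adjusted p = 0.0025). Set against Csf1r, its level was 0.329 and 0.379 in the WT libraries and 0.387 and 0.368 in the KO libraries, so the groups overlapped. Cx3cl1, the gene for fractalkine, was at 5.11 and 5.2 FPKM in the WT libraries and at 5.49 and 4.65 FPKM in the KO libraries (-0.02, adjusted p = 0.82).

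Trem2 and its adaptor Tyrobp both rose, Tyrobp by more. TREM2 is a surface receptor for lipids and debris, and TYROBP (DAP12) is the membrane adaptor through which TREM2 and many other myeloid receptors signal. Tyrobp (Entrez 22177, chromosome 7, 30413782 to 30417582) was at 5.48 and 6.38 FPKM in the WT libraries and at 15.84 and 14.42 FPKM in the KO libraries. It had the largest fold change of the 10, 1.22 (SE 0.08, limma adjusted p = 2.36e-05), and 0.418% of all genes tested had a larger one.

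Trem2 (Entrez 83433, chromosome 17, 48346401 to 48352276) was the lowest of the members, at 1.06 and 1.11 FPKM in the WT libraries and at 2.21 and 1.96 FPKM in the KO libraries (0.56, SE 0.09, adjusted p = 0.00194). At the estimated depth these values stand for about 20 and 21 fragments in the WT libraries and 42 and 37 in the KO libraries. Counting error alone is then about 22.4% of a WT value, more than the gap between the WT replicates. The ratio of Trem2 to Tyrobp was lower in the KO libraries (0.140 and 0.136) than in the WT libraries (0.193 and 0.174), whereas its ratio to Csf1r was higher in the KO libraries (0.319 and 0.281) than in the WT libraries (0.217 and 0.255). The ratio of Trem2 to C1qa overlapped (0.091 and 0.122 in WT, 0.148 and 0.118 in KO). The counting error of Trem2 applies to all these ratios, at 22.4% and 21.8% in WT and 15.4% and 16.4% in KO. A gap such as 0.255 against 0.281 in the ratio to Csf1r lies within it.

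Among the remaining members, the rises of Lyz2 and Cd68 were larger than those of C1q. The rise of Aif1 was similar to that of C1q on the log2(FPKM + 1) scale. As a ratio of KO to WT means, however, Aif1 (1.774) lay above the C1q chains (1.461 to 1.521). Lyz2 (Entrez 17105, chromosome 10, 117277541 to 117282272) encodes the lysozyme of macrophages, monocytes and granulocytes. It had the highest mean of the members, at 14.30 and 11.45 FPKM in the WT libraries and at 28.24 and 32.27 FPKM in the KO libraries (log2 fold change 1.18, SE 0.10, limma adjusted p = 9.81e-05). Relative to C1qa it was at 1.23 and 1.25 in the WT libraries and at 1.89 and 1.94 in the KO libraries. The close paralog Lyz1, the next gene at 5523 bp, was at 1.07 FPKM in both WT libraries and at 2.06 and 2.97 FPKM in the KO libraries (0.75, adjusted p = 0.00268). How reads shared by the paralogs were divided was not given in the sources used here, so the split of signal between them is uncertain.

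Cd68 (Entrez 12514, chromosome 11, 69664213 to 69666170), a glycoprotein of the lysosomal membrane, was at 4.07 and 4.20 FPKM in the WT libraries and at 7.52 and 9.04 FPKM in the KO libraries (0.85, SE 0.08, adjusted p = 0.000199). Neither neighbour within 2 kb was called higher. Eif4a1, a translation initiation gene 766 bp away, did not pass the threshold (-0.07, adjusted p = 0.0728), and Mpdu1, 1564 bp away on the other side, fell by 0.22.

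Aif1 (Entrez 11629, chromosome 17, 35170986 to 35176083) encodes IBA1, the actin-binding protein used to stain microglia. It was at 1.48 and 1.66 FPKM in the WT libraries and at 2.37 and 3.20 FPKM in the KO libraries (0.55, SE 0.12, adjusted p = 0.00703). The KO replicates lay furthest apart of all members relative to their mean, and the call was lost without WT replicate 1 (0.50, adjusted p = 0.0583). On one side the next gene is Lst1, which is also expressed in leukocytes, and it rose by 0.90 (adjusted p = 0.000304), from 1.28 and 1.00 to 2.86 and 3.14 FPKM.

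As ratios of means, the changes of the microglia-leaning members lay within those of the general ones. As log2 fold changes of FPKM + 1, the general members ran from 0.50 to 1.22. Trem2 (0.56) lay within that range and Cx3cr1 (0.46) below it. The ratio of KO to WT means was 1.61 for Cx3cr1 and 1.92 for Trem2, inside the range of the general members from 1.46 to 2.55, whose median was 1.65. Their share of the summed level of the 10 genes was 3.90% and 4.43% in the WT libraries and 4.28% and 3.70% in the KO libraries. On the log2(FPKM + 1) scale, the mean of the 2 minus the mean of the 8 was -1.77 and -1.67 in the WT libraries and -1.85 and -2.05 in the KO libraries. The change of this difference was -0.23. It was -0.06 with a pseudocount of 0.1, where the libraries overlapped (-2.27 and -2.15 against -2.15 and -2.39), since a pseudocount of 1 shrinks the change of low genes most. No test was made on this difference, as it is a score over chosen genes.

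How far the members follow leukocyte RNA in general was read by scaling each library on 9 pan-leukocyte genes, such as Laptm5, Lcp1 and Arhgdib. On this scale the median log2 fold change of all genes was -0.68, and 3.47% of genes were called higher and 86.4% lower. Tyrobp (0.50, SE 0.09, limma adjusted p = 0.000293) and Lyz2 (0.42, SE 0.08, adjusted p = 0.000711) remained called higher. C1qb (-0.19, adjusted p = 0.00841), C1qc (-0.23, adjusted p = 0.00192) and Csf1r (-0.17, adjusted p = 0.0344) were called lower. C1qa (-0.17), Cx3cr1 (-0.07), Aif1 (0.01), Trem2 (0.09) and Cd68 (0.17) were not past the threshold. These p-values take the scaling factor as known, although it rests on 9 genes, and Cyba, Arhgdib and Coro1a among them are also expressed outside leukocytes.

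Scalings meant for the whole tissue left all 10 members called higher. Their fold changes ran from 0.65 to 1.41 with the deposited TPM values, where 49.9% of all genes were called higher and the median of all genes was 0.16. They ran from 0.41 to 1.15 with libraries rescaled after the crystallin and erythroid genes were taken out (25.4% of all genes higher) and from 0.43 to 1.18 with median-of-ratios scaling (28.3%). Tyrobp and Lyz2 also passed a log2 fold change of 1, which 1.52% of all genes did.

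**Figure D2:**
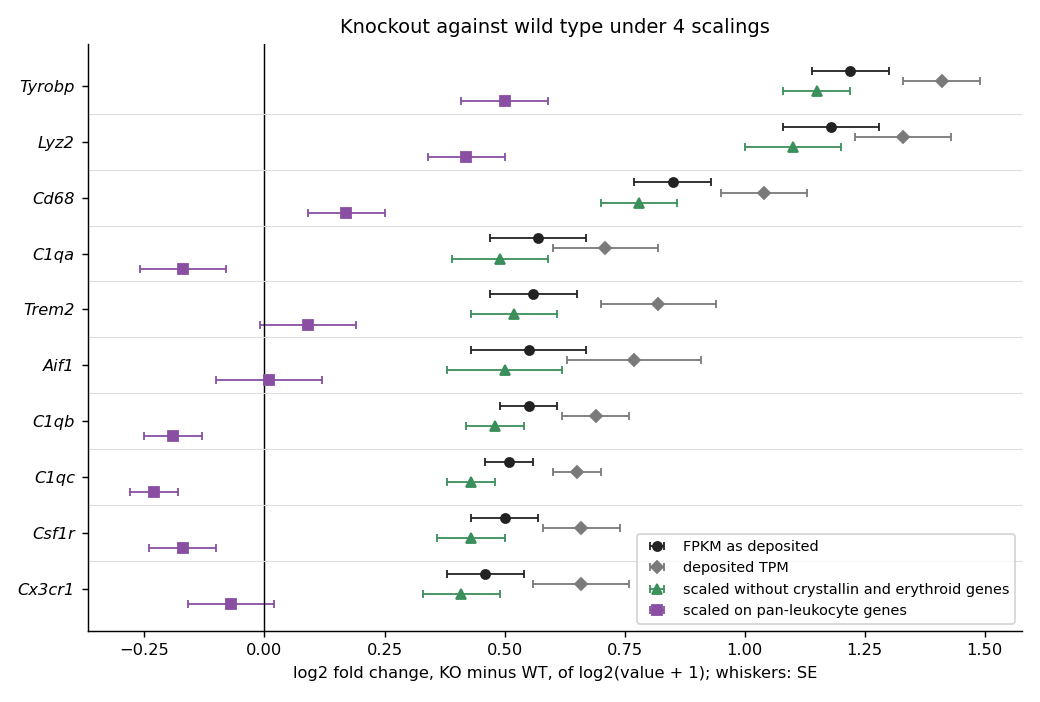
Log2 fold change, KO minus WT, of log2(value + 1) for the 10 genes (horizontal axis, whiskers are SEs) with FPKM as deposited, deposited TPM, libraries scaled without crystallin and erythroid genes, and libraries scaled on 9 pan-leukocyte genes. All 10 lie above 0 in the first 3 scalings, and on the leukocyte scale they run from -0.23 for C1qc to 0.50 for Tyrobp.

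Other genes of blood cells and macrophages were read from fixed lists, in the same fit and with the same background of 33.5% of genes called higher and 21.1% called lower. Of 15 pan-leukocyte genes, 9 were at the level tested, 8 rose and none fell, with a median of 0.58. Cd53, which is 1 of the 8 and also 1 of the 9 scaling genes, reached that level only through the KO libraries (0.86 and 0.70 FPKM in WT, 1.98 and 1.63 FPKM in KO), and over all 15 genes with no filter the median was 0.50. Arhgdib, a regulator of the cytoskeleton in blood cells, rose from 10.95 and 10.82 to 19.72 and 20.01 FPKM (0.81), and Laptm5, a lysosomal protein of blood cells, from 4.58 and 4.32 to 7.81 and 7.84 FPKM (0.70). Ptprc, which encodes CD45 and marks all leukocytes, was below the level tested, at 0.48 and 0.57 FPKM in the WT libraries and at 0.82 and 0.78 FPKM in the KO libraries. With no filter, where 24.5% of all genes were called higher and 14.8% lower, it was called higher (0.24, limma adjusted p = 0.0315).

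Macrophages of tissues and of the borders of the nervous system were represented by 14 genes. Of these, 10 were tested, 8 rose and none fell, with a median of 0.65. Adgre1 and Ms4a7, both among the 8, reached the level tested only through the KO libraries, and over all 14 genes with no filter the median was 0.36. Cbr2, a carbonyl reductase of tissue macrophages and airway cells, rose from 19.89 and 19.46 to 39.56 and 36.06 FPKM (0.91), and F13a1, a clotting factor subunit made by macrophages, from 4.95 and 4.68 to 9.49 and 8.82 FPKM (0.80). The platelet and macrophage chemokine gene Pf4 (0.64) rose as well, and the mannose receptor Mrc1 went from 2.67 and 2.94 to 5 and 5.07 FPKM (0.67). Adgre1, which encodes the macrophage antigen F4/80, rose by 0.66, from 0.99 and 0.88 to 1.91 and 2.22 FPKM. The haemoglobin scavenger receptor Cd163 (1.40 and 0.84 against 1.08 and 1.18 FPKM) did not pass the threshold.

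Homeostatic microglia genes split. Of 12 genes, 6 were tested, 4 rose and 1 fell, with a median of 0.54. Olfml3 rose from 13.94 and 13.45 to 32.49 and 31.84 FPKM (1.17), Tmem119 from 7.94 and 7.84 to 19.10 and 18.71 FPKM (1.16) and Fcrls from 2.81 and 2.56 to 5.34 and 6.03 FPKM (0.86). Olfml3 and Tmem119 are also expressed in mesenchymal and bone-forming cells, and all 8 periocular mesenchyme genes rose in the same libraries (lowest 0.82). On the leukocyte scale Olfml3 (0.42, limma adjusted p = 1.44e-05), Tmem119 (0.43, adjusted p = 2.74e-05) and Fcrls (0.23, adjusted p = 0.0197) were still called higher. The part of mesenchyme in these rises was not tested.

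P2ry12, the purinergic receptor that marks mature microglia, overlapped between the groups. It was at 0.66 and 1.13 FPKM in the WT libraries and at 0.63 and 0.96 FPKM in the KO libraries, below the level tested, and with no filter its log2 fold change was -0.07 (limma adjusted p = 0.755). Siglech, a lectin of microglia and plasmacytoid dendritic cells, was at 0.45 and 0.29 FPKM in the WT libraries and at 0.13 and 0.10 FPKM in the KO libraries, and with no filter it was called lower (-0.29, adjusted p = 0.0338). Sall1, a transcription factor of microglia that other embryonic tissues also express, fell from 2.99 and 2.72 to 1.04 and 0.94 FPKM (-0.95, adjusted p = 0.000143), and it reached the level tested only through the WT libraries. Gpr34 (0.35) and Cd33 (0.29) were called higher with no filter, at values under 1 FPKM in all libraries. Over all 12 genes with no filter, 6 were called higher and 2 lower, with a median of 0.20, beside the 24.5% and 14.8% of all genes in that fit.

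**Figure D3:**
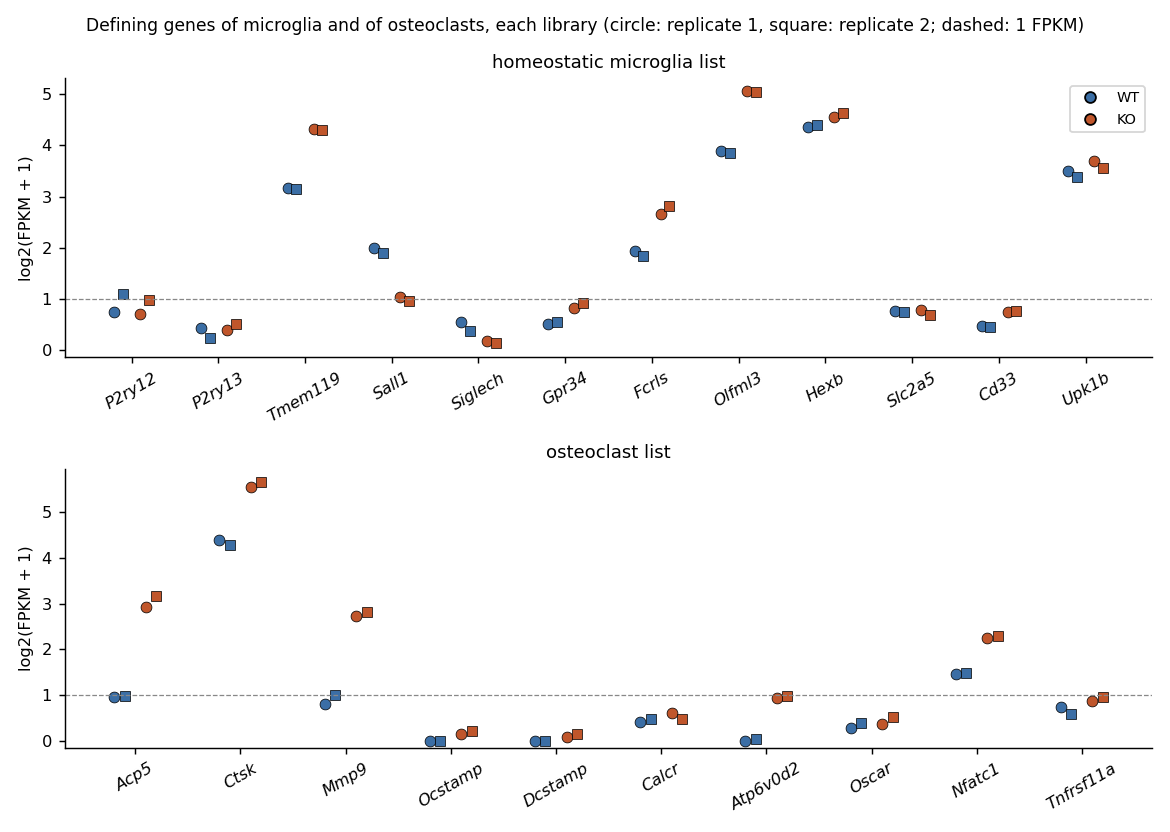
Log2(FPKM + 1) of each gene of the homeostatic microglia list (top) and of the osteoclast list (bottom) in every library, with blue for WT and orange for KO, circles for replicate 1 and squares for replicate 2, and a dashed line at 1 FPKM. P2ry12 overlaps between groups and Siglech and Sall1 are lower in KO, while Acp5, Ctsk and Mmp9 are higher in both KO libraries.

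Genes of osteoclasts, the bone-resorbing cells that share the myeloid origin of macrophages and also express Csf1r, Tyrobp, Trem2 and Cd68, mostly moved with the members. Of 10 genes, 4 were tested and all 4 rose, with a median of 1.57. Acp5 and Mmp9 reached that level only through the KO libraries, and over all 10 genes with no filter the median was 0.52. Acp5, the tartrate-resistant acid phosphatase, was at 0.95 and 0.97 FPKM in the WT libraries and at 6.62 and 8 FPKM in the KO libraries (2.08, limma adjusted p = 6.29e-06). Mmp9, a gelatinase, was at 0.74 and 1.01 FPKM and at 5.60 and 6.02 FPKM (1.86), and Ctsk, the collagen-degrading cathepsin K that fibroblasts also express, at 19.85 and 18.39 FPKM and at 45.56 and 49.61 FPKM (1.27).

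The osteoclast proton pump subunit Atp6v0d2 was listed at 0 and 0.03 FPKM in the WT libraries and stood at 0.92 and 0.98 FPKM in the KO libraries. The fusion genes Ocstamp and Dcstamp were listed at 0 in both WT libraries and were at 0.06 to 0.16 FPKM in the KO libraries. Calcr (0.34 and 0.40 against 0.52 and 0.40 FPKM) and Oscar (0.21 and 0.32 against 0.29 and 0.44 FPKM) overlapped between groups. With no filter 6 of the 10 genes were called higher, beside 24.5% of all genes, and none lower. The summed level of the 10 osteoclast genes was 24.52 and 23.41 FPKM in the WT libraries and 64.24 and 70.55 FPKM in the KO libraries. Most of that sum was Ctsk, at 19.85 and 18.39 FPKM in WT and at 45.56 and 49.61 FPKM in KO. Acp5 (1.53), Mmp9 (1.33) and Ctsk (0.50) also remained called higher on the leukocyte scale. The part of these cells in the rises of Tyrobp, Csf1r, Trem2 and Cd68 was not tested.

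Of the list named for developmental and lipid-associated microglia, 9 of 12 genes were tested, 7 rose and 2 fell, with a median of 0.63. Spp1, or osteopontin, known both from such microglia and from bone matrix, rose from 12.76 and 11.92 to 85.56 and 87.78 FPKM (2.72). The growth factor gene Igf1 rose from 17.08 and 16.99 to 31.30 and 31.65 FPKM (0.85), and the tetraspanin genes Cd9 (0.80) and Cd63 (0.63), which many cell types express, rose as well. Gpnmb, a glycoprotein of macrophages and of pigment cells, fell from 19.24 and 18.88 to 11.77 and 11.70 FPKM (-0.66), and the fatty acid binding protein Fabp5 from 296.40 and 298.96 to 164.42 and 160.25 FPKM (-0.87). Genes of this list with narrower myeloid expression were low: Itgax was at 0.07 to 0.12 FPKM, Cst7 at 0 to 0.34 FPKM and Clec7a at 0.20 to 0.90 FPKM.

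The genes around CSF1R were its ligands and the transcription factors of myeloid cells. Of 12 genes, 10 were tested, 6 rose and 1 fell, with a median of 0.47. Csf1 rose from 5.28 and 5.11 to 9.38 and 7.98 FPKM (0.64), and the other ligand gene, Il34, stood at 0.31 and 0.56 FPKM and at 1.20 and 1.27 FPKM, below the level tested. Spi1, which encodes PU.1, rose from 1.62 and 1.39 to 2.69 and 2.56 FPKM (0.53), near C1q and Csf1r on the log2(FPKM + 1) scale. Its ratio of KO to WT means, 1.744, lay above those of Csf1r (1.505) and of the C1q chains (1.461 to 1.521). Cebpa (0.91), Runx1 (0.74) and Cebpb (0.58) rose as well. Irf8, a factor of microglia and monocytes, was at 1.5 and 1.35 FPKM and at 1.61 and 1.76 FPKM and did not pass the threshold (0.15, limma adjusted p = 0.213). Batf3 (0.01) and Irf5 (-0.35, limma adjusted p = 0.0564) did not pass it either. Irf5 was at 1.97 and 1.77 FPKM in WT and lower in both KO libraries, at 0.99 and 1.54 FPKM. It was called lower with crystallin and erythroid genes left out of the scaling (-0.40) and with median-of-ratios scaling (-0.38). Maf, which macrophages share with the lens, fell from 31.27 and 33.32 to 12.31 and 12.16 FPKM (-1.33) in libraries in which all 16 crystallins also fell (median -3.51).

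Among partners of TYROBP and Fc receptors, 5 of 12 genes were tested, 4 rose and none fell, with a median of 0.32. Fcgr3, a low-affinity receptor for IgG, rose from 3.90 and 4.57 to 8.57 and 9.59 FPKM (0.95), and Fcer1g, the adaptor that plays for Fc receptors the part of TYROBP, from 6.45 and 5.94 to 10.07 and 11.34 FPKM (0.70). The kinase Syk, downstream of both adaptors, rose by 0.32 (limma adjusted p = 0.0287), a call lost without KO replicate 2, without either WT replicate and with no filter. Sirpa, a receptor that restrains uptake and is also abundant in neurons, rose by 0.25. Hcst, the adaptor gene 130 bp from Tyrobp, was at 0.13 and 0.53 FPKM in the WT libraries and at 0.27 and 0.40 FPKM in the KO libraries, and Trem1 was at 0.11 to 0.20 FPKM in all libraries.

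Complement genes other than C1q had a lower median than the C1q chains (0.30 against 0.55). Of 17 genes found, 11 were tested, 7 rose and 1 fell. The inhibitor Cd55 (0.72), the lectin pathway protease Masp1 (0.71) and the C1 inhibitor Serping1 (0.46) rose, and of these Serping1 was the most abundant, at 20.41 and 20.92 FPKM and at 27.41 and 30.22 FPKM. C1s1, the protease that works with C1q, rose from 6.04 and 6.30 to 9.25 and 8.21 FPKM (0.44), and its partner C1ra by 0.30 (limma adjusted p = 0.0452). The call of C1ra was lost without either WT replicate, without KO replicate 2, with no filter and with libraries scaled by median ratios. It was also lost with crystallin and erythroid genes left out of the scaling (0.24, limma adjusted p = 0.0781). Clu fell from 76.03 and 72.59 to 56.28 and 58.40 FPKM (-0.37). C3, the central component, was at 0.73 and 0.77 FPKM and at 1.27 and 1.08 FPKM, and the receptor C3ar1 at 0.48 and 0.60 FPKM and at 1.01 and 1.09 FPKM, both below the level tested.

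Of 13 genes for phagocytosis and clearance, 10 were tested, 9 rose and none fell, with a median of 0.45. Cd36, a scavenger receptor also found on endothelium, rose from 2.96 and 3.42 to 7.02 and 7.96 FPKM (1.02), and the receptors Axl (0.80) and Mertk (0.79) and their ligand Gas6 (0.56) rose as well. Mertk went from 2.46 and 2.53 to 4.89 and 5.17 FPKM. The bridging protein Mfge8 did not pass the threshold (0.01).

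Of 14 lysosomal and antigen presentation genes, all tested, 7 rose and 1 fell, with a median of 0.17, and no class II gene was among those that rose. Ctss, the cathepsin most typical of myeloid cells, rose from 5.81 and 5.57 to 9.05 and 9.41 FPKM (0.61), beside Ctsb (0.49), Lamp2 (0.44) and Grn (0.48), which many cell types express. Cd74 was at 8.61 and 7.69 FPKM in the WT libraries and at 7.25 and 8.62 FPKM in the KO libraries (-0.04), and H2-Aa (0.01) and H2-Eb1 (0.01) did not pass the threshold either. H2-Ab1 fell by 0.28 (limma adjusted p = 0.0484), a call lost with TPM, with no filter, without either WT replicate and without KO replicate 2.

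Inflammatory activation genes were low. Of 12 genes, 3 were tested, and Arg1 (0.77) and Tlr2 (0.50) rose. Il1b was at 0.77 and 0.61 FPKM in the WT libraries and at 0.48 and 0.72 FPKM in the KO libraries, Tnf at 0.17 to 0.55 FPKM and Il6 at 0.05 to 0.15 FPKM. Of 13 chemokine genes and receptors, 6 were tested, 2 rose and 1 fell, with a median of 0.21. Cxcl12, made mostly by stromal cells, rose from 40.52 and 43.25 to 76.20 and 80.56 FPKM (0.89), and Ccl9, a macrophage chemokine, from 0.88 and 0.96 to 2.10 and 2.27 FPKM (0.73). Ccl9, Ccl2 and Ccl6, 3 of the 6 tested, reached that level only through the KO libraries. Cxcr4, which neurons and progenitors share with leukocytes, fell by 0.64.

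Markers of other blood cells were read as well. Of 8 monocyte genes 4 were tested and all 4 rose (median 0.63), among them Plac8 (0.82) and Fn1 (0.67), which is mostly stromal. The defining monocyte receptor Ccr2 was at 0.41 and 0.28 FPKM in the WT libraries and at 0.50 and 0.72 FPKM in the KO libraries. Of 10 neutrophil genes 7 were tested, 4 rose and none fell, with a median of 0.37, and 2 rose without WT replicate 1, without KO replicate 2, or once crystallin and erythroid genes were left out of the scaling. S100a8 rose from 6.87 and 7.64 to 13.75 and 14.33 FPKM (0.87) and Lcn2 from 4.50 and 4.82 to 6.39 and 7.22 FPKM (0.46), while the granule gene Ngp overlapped between groups, at 3.96 and 6.22 FPKM against 5.65 and 6.02 FPKM. The summed neutrophil level was 27.60 and 32.56 FPKM in the WT libraries and 42.10 and 50.98 FPKM in the KO libraries, and its part in the rise of Lyz2, which neutrophils also express, was not tested.

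Of 8 mast cell genes 6 were tested, 5 rose and none fell (median 0.47), including the chymase Cma1 (0.58) and Hdc (0.63), the enzyme that makes histamine. Lymphocyte genes were near the floor. Of 11 genes found 2 were tested and neither passed, and Cd3d, Cd3e and Cd3g, of the T cell receptor complex, were at 0 to 0.12 FPKM in all libraries. Nkg7, of cytotoxic cells, was at 0.96 and 1.03 FPKM in the WT libraries and at 0.14 and 0.27 FPKM in the KO libraries, and with no filter it was called lower (-0.73, limma adjusted p = 0.00333). In that fit Gzma was also called lower (-0.25), and Cd79b was called higher (0.40, limma adjusted p = 0.0131). Cd79b was at 0.23 and 0.35 FPKM in WT and at 0.74 and 0.66 FPKM in KO. Of all genes in that fit, 24.5% were called higher and 14.8% lower.

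Genes of other tissues in and around the eye also rose. Of 10 endothelial genes 8 rose and 1 fell (median 0.69), with Pecam1 at 0.91 and Cdh5 at 0.71. Of 6 tested erythroid genes 5 rose (median 0.57), with Hbb-bt at 0.71. All 9 skeletal muscle genes rose (median 1.06), such as Myh8 (1.12), as did all 8 genes of periocular mesenchyme, such as Lum (1.17). The 16 crystallins of the lens summed to 69496.25 and 69693.59 FPKM in the WT libraries and to 6097.26 and 6145.11 FPKM in the KO libraries. The part of these shifts in tissue makeup in the rise of the macrophage genes was not tested.

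**Figure D4:**
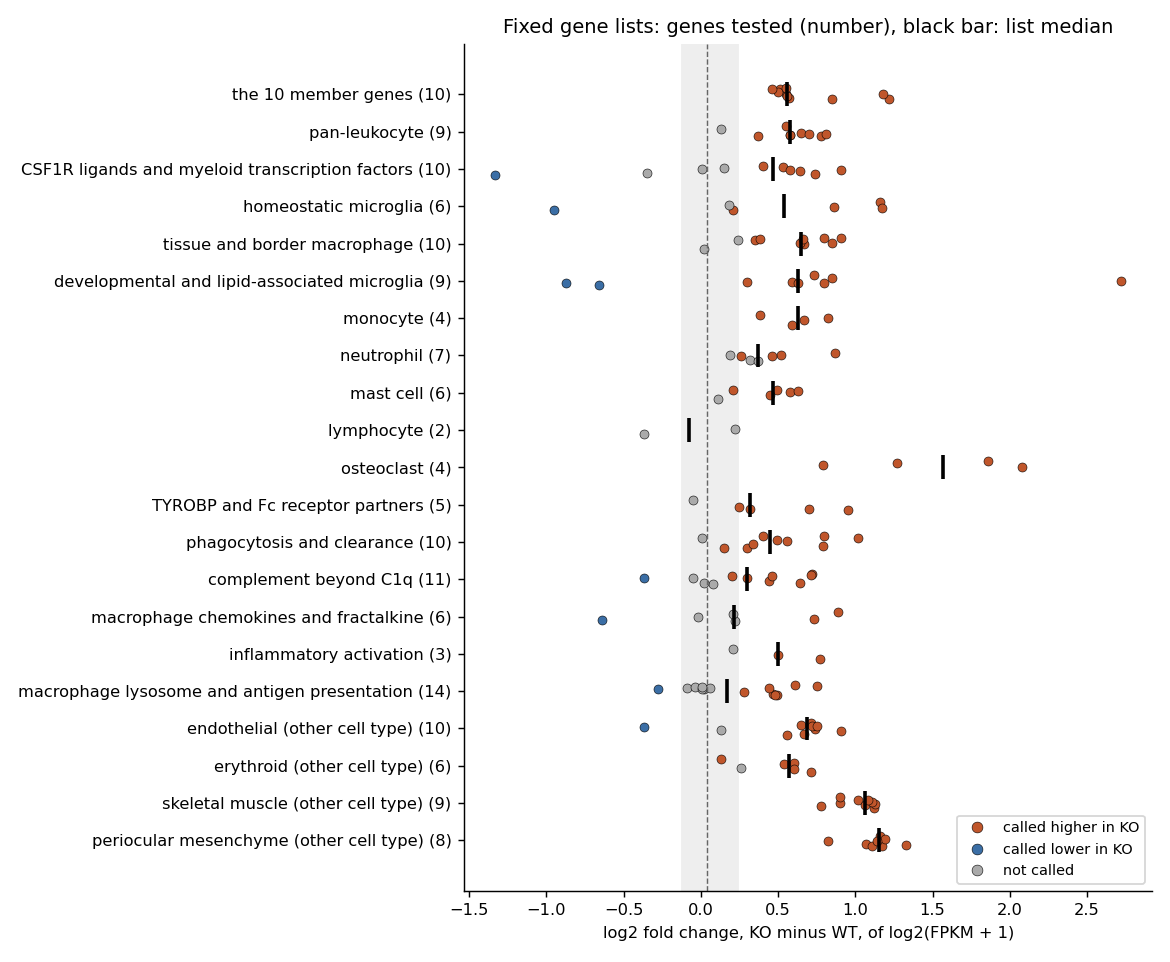
Log2 fold change, KO minus WT, of log2(FPKM + 1) (horizontal axis) for each gene tested in the 10 members and in the fixed lists except the lens crystallins, with the number tested in brackets, orange for genes called higher, blue for genes called lower and grey for genes not called. The 16 crystallins, all called lower with a median of -3.51, are not drawn. Black bars are list medians (0.56 for the members, 1.57 for the 4 osteoclast genes tested, 0.52 over all 10 with no filter), the dashed line is the median of all genes tested (0.04) and the grey band their middle quartiles (-0.12 to 0.24).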

How the data were processed

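RNA sequencing of eye tissue gave 1 table per library. The authors deposited FPKM values and TPM values per gene, per the file headers, and the TPM values sum to 1000000 per library. Tools named in the submitters' processing notes, without roles, are HISAT2, TopHat, Cufflinks and DESeq, with the builds GRCm38 and GRCh38. The sources used here do not give the tool behind the values, the annotation, filters or strand use. FPKM divides by all fragments, so a fall in abundant transcripts raises other values.

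Of the symbols, 26 shown as dates were restored from Entrez numbers with the RefSeq table of GRCm38.p6, which also gave all positions. The depth was estimated from 208 to 234 low FPKM values per library. Of these, 53.9% to 63.0% lay within 0.15 of a whole number of fragments, too few to recover counts. A depth fixed beforehand would give 30% by chance. The depth used was the one that best fitted these same values, so 30% is not its chance level. Over 1268 WT and 1300 KO genes, chi-square per gene between replicates was 1.57 and 1.37, above sampling noise at the estimated depth. That spread may be technical and cannot show that the libraries came from different embryos. They were treated as 2 replicates per group, as numbered in the labels.

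Log2(FPKM + 1) of genes averaging 1 FPKM or more was fitted in R 4.3.3 by limma-trend 3.58.1, with genotype as the single factor, two-sided, adjusted over all genes (2 residual and 4.89 prior degrees of freedom). It was checked on simulated data. Lists were read by counts and medians, with no set test. Named list genes were mostly taken from those with the lowest p past the threshold in each list, with low defining markers, and others were chosen after their values were seen. A complement gene named by this rule is not reported here by name. The members, lists and tests were chosen with earlier results of these data known. Alternatives were pseudocounts of 0.1 and 5, no filter, a minimum of 5 FPKM in 2 or more libraries, the replicate block, TPM, 3 scalings, a log2 fold change of at least 1, a 100-base promoter window and the omission of each library. Python 3.11.15 was used.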

Additional observations from a re-analysis of the deposited data

How the results depend on the processing

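All 10 members were called higher with pseudocounts of 0.1 and 5, with no filter, with TPM, with median-of-ratios scaling and once crystallin and erythroid genes were left out of the scaling. Of all genes, 33.4% and 33.5% were called higher with the pseudocounts and 24.5% with no filter. With a minimum of 5 FPKM in 2 or more libraries, 7 were tested and all 7 were called higher, as were 34.1% of all genes in that fit, since Trem2, Cx3cr1 and Aif1 lie lower. Without single libraries 9 to 10 were called (9 without WT replicate 1 and 9 without KO replicate 2), beside 24.3% to 28.4% of all genes called higher. With a log2 fold change of at least 1 required, 2 were called, Tyrobp and Lyz2, and 326 of all genes. Scaled on pan-leukocyte genes, 2 members were called higher and 12481 of all genes were called, nearly all lower, because that scaling shifts all genes, and the values of C1qa (-0.17), C1qb (-0.19), C1qc (-0.23), Csf1r (-0.17) and Cx3cr1 (-0.07) changed sign. The change in the microglia-leaning minus general difference, -0.23, became -0.06 with a pseudocount of 0.1 and -0.04 on the leukocyte scale, and ran from -0.32 to -0.13 without single libraries.

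Over all genes 7586 were called, 4654 higher and 2932 lower, and 5415 to 6225 without single libraries. The split was 6926 higher and 1667 lower with TPM, which moved the median of all genes to 0.16, 3533 and 4330 without crystallin and erythroid genes in the scaling, and 3936 and 3685 with median-of-ratios scaling. The numbers 1 and 2 are shared by both groups without a stated pairing, and the replicate differences of WT and KO correlated at 0.044 across genes. With the replicate number as a block 7828 genes and all 10 members were called, and 34.4% of all genes were higher. The depth limits Trem2 and Aif1 most, at about 20 to 25 fragments per WT library, which are estimates.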
